A study of Mus musculus with 8 samples.

Results

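The MYC, MAX and MXD network is a group of basic helix-loop-helix leucine zipper transcription factors, taken here as the genes Myc, Mycn, Max, Mnt, Mga, Mxd1, Mxd3, Mxd4, Mxi1 and Mlx. Its members on the array were all probe sets whose single gene symbol is one of these 10 names. These 10 genes, of 18193 with a probe set of their own, came to 26 probe sets of 45037 other than controls. Each probe set, a group of short oligonucleotides that reads 1 stretch of transcript, was kept on its own. Mga had 5 probe sets, Mxd4 had 4, and Mycn, Mxd1 and Mxd3 had 3 each. Mnt, Mxi1 and Mlx had 2 each, and Myc and Max had 1 each.

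RNA of bone marrow cells, sorted by flow cytometry from mice, was measured on 8 Affymetrix arrays. The L-GMP group (4 arrays, replicates A to D) carries the genotype label HoxA9+Meis1 AML, an acute myeloid leukaemia. The GMP group (4 arrays, A to D) is from normal marrow, and GMP stands by usage for granulocyte-macrophage progenitor. Strain, age, sex, how the leukaemia was made and the number of animals are not given in the sources used here. The sources do not say whether a group's arrays came from different animals, and its spread, on which every p-value rests, may therefore be technical.

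MYC and its paralogue MYCN bind DNA as dimers with MAX at the E-box CACGTG and act mainly as activators of genes for growth, ribosome production and metabolism. The MXD proteins (MXD1, MXI1, MXD3 and MXD4) and MNT also pair with MAX, bind the same sites and recruit the SIN3 corepressor with histone deacetylases. In the blood lineages MYC is typically high in dividing progenitors, while MXD1 is typically raised as granulocytes mature. MGA binds MAX within a Polycomb complex, and MLX is a MAX-like partner of MNT, of some MXD proteins and of the nutrient sensors of the MONDO family.

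Upstream sequence of the members is shown first, because these proteins bind E-boxes and some of their genes hold one. RefSeq windows of GRCm38.p6, from 250 bases before to 50 bases after an annotated start, were at hand for 9 of the 10 genes, as 11 windows (3 of them for Mxi1). No window was at hand for Myc. The E-box CACGTG, which reads the same on both strands, was present in 4 of the 9 genes, against 8.09% of 27025 genes and 7.15% of 32851 windows. The E2F site TTTGGCGC, searched on both strands (the other strand reads GCGCCAAA), was present in Mycn alone among the 9, against 0.585% of genes and 0.514% of windows. No member window held both motifs. A match is a description of letters and does not show binding.

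The 4 E-boxes are each shown with 12 bases on either side, 5′ to 3′ on the strand of the gene, with the E-box in capitals. Their first base lay 219 bases before the start in Mxd4 (minus strand, chr5:34187912-34187941), 123 before it in Mnt (plus, chr11:74830789-74830818), 40 before it in Mlx (plus, chr11:101087238-101087267) and 3 before it in Max (minus, chr12:76962234-76962263).
Mxd4: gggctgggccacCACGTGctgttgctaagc
Mnt: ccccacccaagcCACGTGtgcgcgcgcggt
Mlx: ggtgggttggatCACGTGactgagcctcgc
Max: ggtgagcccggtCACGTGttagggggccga
None of these 4 genes had a probe set past the threshold between the groups, as described below. Among the genes with a window but no E-box, Mga and Mxd1 had none either, while Mycn, Mxd3 and Mxi1 had. A link between the motif and the differences was not tested.

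The Mycn window is shown because this gene had both the largest rise and the only fall of the network. It covers chr12:12941837-12942086 on the minus strand, has 11 CpG dinucleotides and 54.8% G and C, and the E2F sites are in capitals. They start 183 and 168 bases before the transcript start, 15 bases apart. For Mxi1, shown because both of its probe sets rose, the second of its 3 windows is printed. On the plus strand it and the third window lie downstream of the first (chr19:53310256-53310505), so both may hold transcribed sequence. The printed window covers chr19:53329163-53329412 on the plus strand, has 13 CpG dinucleotides and 60.0% G and C, and holds neither motif, so no letter is in capitals. The bases before the start in the other Mxi1 windows have 13 and 42 CpG dinucleotides and 55.2% and 77.2% G and C, also without either motif.
Mycn: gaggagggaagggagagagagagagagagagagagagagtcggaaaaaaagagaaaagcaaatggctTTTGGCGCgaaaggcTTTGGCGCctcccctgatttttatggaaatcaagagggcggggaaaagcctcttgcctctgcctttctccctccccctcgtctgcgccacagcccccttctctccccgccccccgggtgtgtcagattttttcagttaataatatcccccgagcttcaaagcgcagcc
Mxi1: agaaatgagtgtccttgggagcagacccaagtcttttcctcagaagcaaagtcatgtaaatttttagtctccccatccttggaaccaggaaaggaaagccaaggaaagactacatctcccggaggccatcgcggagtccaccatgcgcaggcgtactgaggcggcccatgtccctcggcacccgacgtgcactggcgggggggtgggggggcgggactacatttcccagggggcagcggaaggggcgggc

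Before the comparison, the arrays themselves were examined. Values are log2 RMA intensities, a scale on which 1 unit is a doubling of signal, and differences are L-GMP minus GMP. Across all probe sets (not independent of each other) arrays correlated at 0.983 to 0.994 inside a group and at 0.967 to 0.974 across groups. Principal components put the groups apart first (55.5% of the variance), then L-GMP B (12.6%) and then GMP A (9.71%). On GMP D the 3' control probe sets of Gapdh exceeded the 5' ones by 2.74, against 1.24 to 1.76 on the other arrays. Among the genes of the leukaemia label, Hoxa9 rose by 4.82 in one probe set and fell by 6.66 in the other, and Meis1 fell in its 3, with differences of -3.05, -2.07 and -1.47. In Hoxa9 the L-GMP mean of the probe set that fell, 2.76, is under the 10th percentile of every array (2.84 to 2.92), and the Meis1 probe sets stood at 3.32 to 4.04 in L-GMPs. An offset of 16 before log2 made these falls -4.94 for Hoxa9 and -2.21, -1.15 and -0.83 for Meis1, so their sizes are not firm. These genes therefore give no check of the labels in a single direction.

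**Figure D1:**
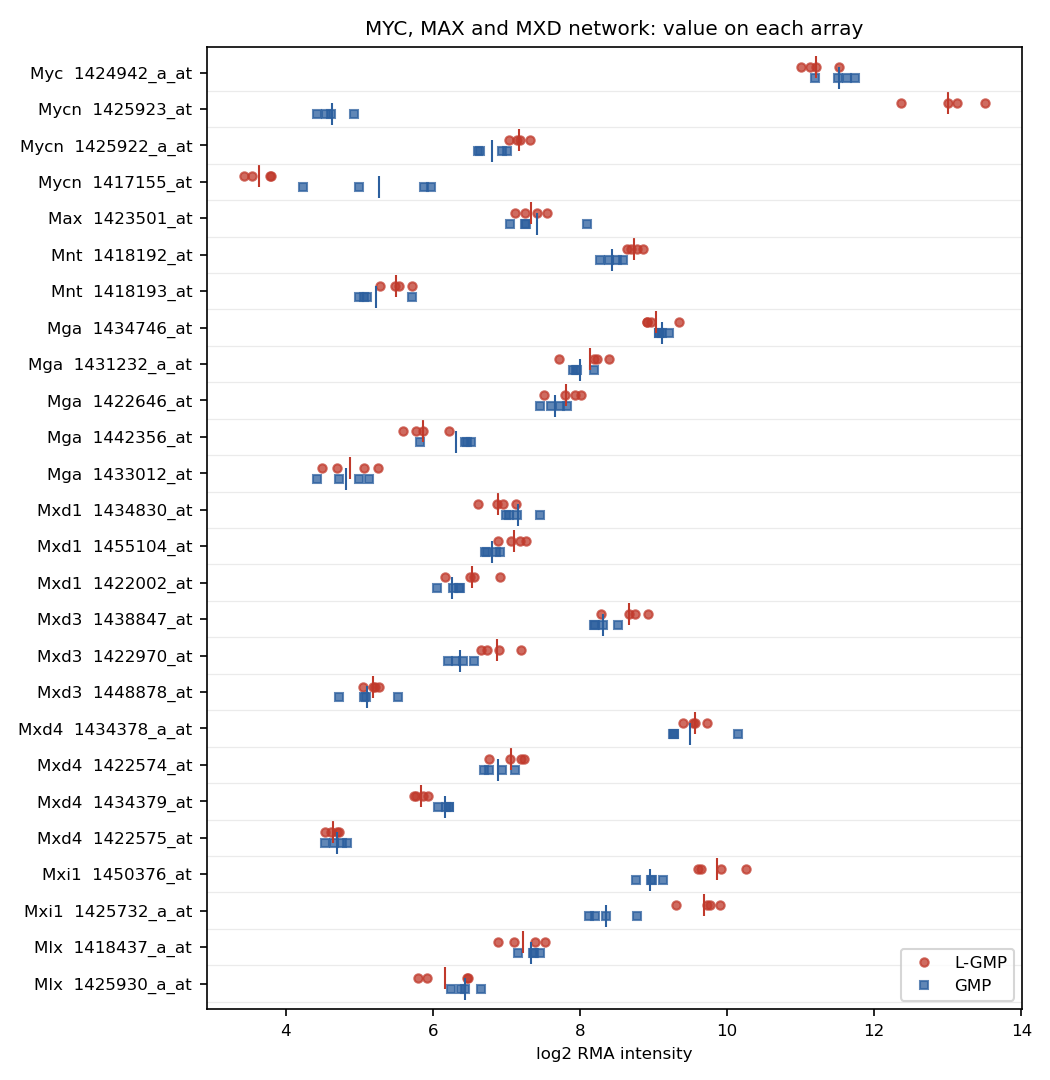
Log2 RMA intensity (horizontal axis) of the 26 probe sets of the 10 network genes (rows) on each of the 8 arrays; red circles are the 4 L-GMP arrays, blue squares the 4 GMP arrays and the short lines the group means. The groups do not overlap in 8 probe sets, and the widest gap is in Mycn 1425923_at, between 12.37 and 4.93.

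Mycn and Mxi1 carried the clear differences of the network, while Myc, Max, Mnt, Mga, Mxd1, Mxd4 and Mlx had no probe set past the threshold. Of the 26 probe sets, 4 rose in L-GMPs (3.89% of all probe sets did) and 1 fell (7.03% of all did), at an adjusted p of 0.05. Together 19.2% of the member probe sets passed, against 10.9% of all 45037. The 5 calls lay in 3 genes, Mycn, Mxi1 and Mxd3. The groups did not overlap in 8 member probe sets, 3 of them not past the threshold, and 17.1% of all probe sets had no overlap. The other 21 probe sets had differences from -0.45 to 0.37, of which 12 were positive and 9 negative. The median difference of the members was 0.11 and that of all probe sets 0.00. After centring each array on its median the latter moved to 0.14, so differences of that size hold only relative to the scaling. Tests are limma's moderated test with Benjamini-Hochberg adjustment over all 45037 probe sets. In bulk samples, fewer cells of a type and less RNA per cell cannot be told apart.

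**Figure D2:**
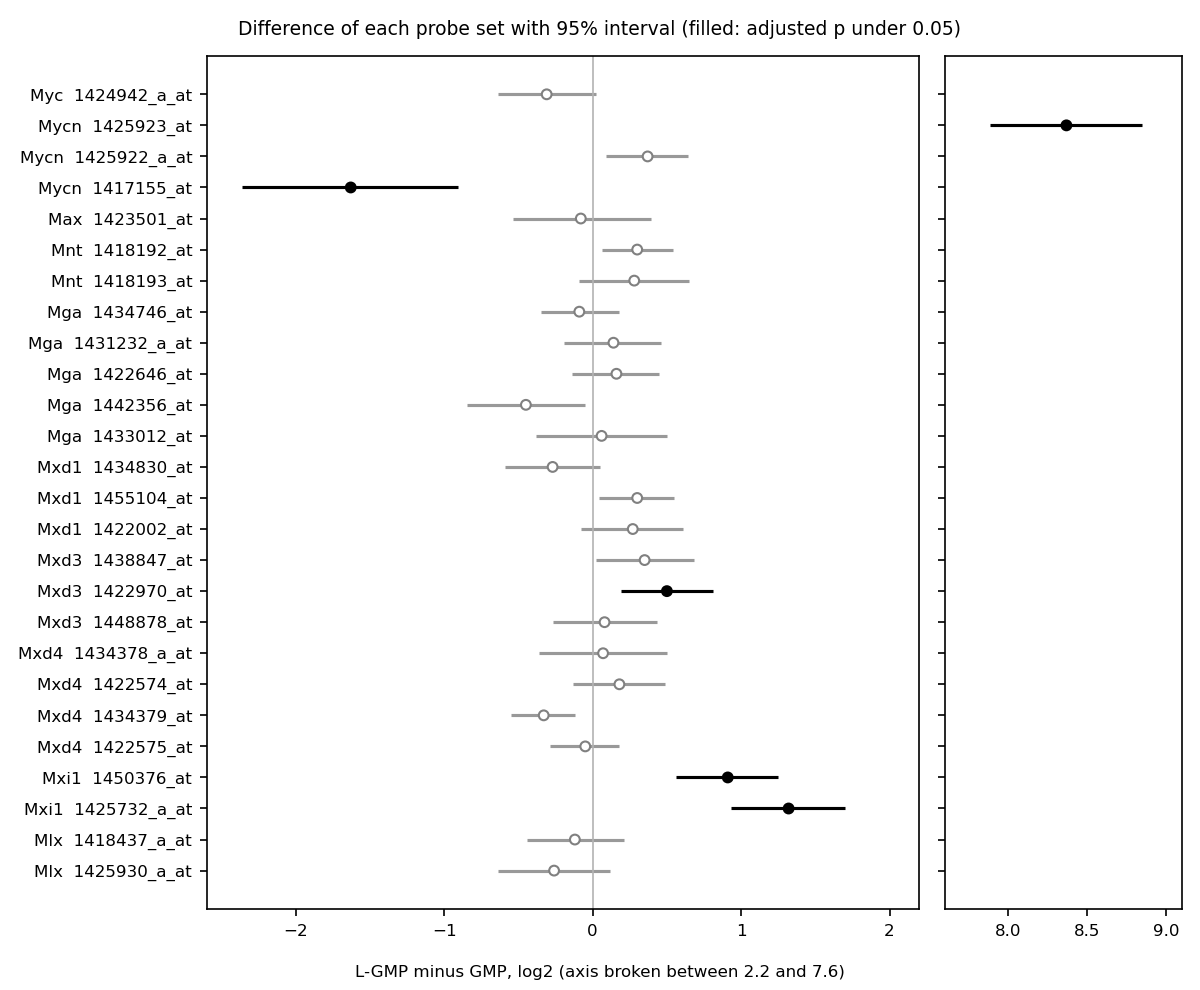
L-GMP minus GMP difference on the log2 scale (horizontal axis, broken between 2.2 and 7.6) of each of the 26 probe sets (rows), with the 95% interval of the limma fit as a bar; filled points have an adjusted p under 0.05. Of the 5 filled points, 3 lie between 0.50 and 1.32, 1 lies at 8.37 and 1 at -1.63.

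Myc, the founding activator of the network, was bright in both groups and slightly dimmer in L-GMPs, without passing the test. The 4 L-GMP arrays stood at 11.21, 11.13, 11 and 11.52 (A to D) and the 4 GMP arrays at 11.74, 11.2, 11.51 and 11.63. The ranges overlap, with L-GMP D level with the GMP mean and the other 3 L-GMP arrays below it. The means were 11.21 ± 0.22 in L-GMPs and 11.52 ± 0.23 in GMPs (SD, n = 4). The difference was -0.31 (SE 0.15, 95% interval -0.64 to 0.02, adjusted p = 0.229), or 1.24-fold higher in GMPs. The upper end of that interval is a rise of 0.02. Over 20 alternative settings the difference stayed between -0.41 and -0.17 and passed the threshold in 0 of them. By its mean over all arrays, this probe set was brighter than 98.1% of all probe sets.

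Mycn, the paralogue of Myc best known from neural tumours and from early blood progenitors, differed in direction between its 3 probe sets. In 1425923_at the L-GMP arrays stood at 13, 13.51, 13.12 and 12.37 and the GMP arrays at 4.93, 4.55, 4.42 and 4.61. Every L-GMP array was thus far above every GMP array, and L-GMP D was the lowest of its group. The rise was 8.37 (95% interval 7.89 to 8.85, SE 0.22, 331-fold, adjusted p = 3.67e-09). The GMP mean was 4.63 ± 0.22 and the L-GMP mean 13 ± 0.47 (SD, n = 4). It had the third largest rise of the 45037 probe sets. It stayed past the threshold under all 20 alternatives, between 2.37 for the mean of the 3 Mycn probe sets and 8.58. The GMP mean lies below the median of every array (5.24 to 5.49) and an offset of 16 gave 7.65, so the fold is not exact.

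In 1425922_a_at the L-GMP arrays stood at 7.19, 7.14, 7.32 and 7.03 and the GMP arrays at 7.01, 6.62, 6.64 and 6.94. The groups do not overlap, but the gap between them is only that between 7.03 and 7.01. The difference was 0.37 (SE 0.12, adjusted p = 0.0897) and did not pass the test. It passed after centring each array on its median (0.51, adjusted p = 0.0393) and with array weights (0.42, adjusted p = 0.0383).

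In 1417155_at the direction was the opposite. The L-GMP arrays stood at 3.8, 3.54, 3.78 and 3.43 and the GMP arrays at 5.88, 4.24, 4.99 and 5.97. All L-GMP arrays lay below all GMP arrays, and the GMP arrays were spread over more than 1 log2 unit. This probe set fell by 1.63 (SE 0.33, 3.10-fold, adjusted p = 0.0104). Group means were 5.27 ± 0.81 for GMPs and 3.64 ± 0.18 for L-GMPs (SD, n = 4). Because the latter is at or under each array's lower quartile (3.65 to 3.75), the fall has no firm size. The call was lost without L-GMP B and GMP D together (-1.37, adjusted p = 0.0509), a setting chosen after seeing the data, and in limma's test against a fold of 1.5 (adjusted p = 0.198). It was kept without any single array, and an added offset of 16 before log2 gave a difference of -0.97.

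The disagreement between the Mycn probe sets was measured directly. On each array the value of 1425922_a_at or of 1417155_at was subtracted from that of 1425923_at, and the groups were compared. The change was unequal by 8.0 log2 units against the former and by 10 against the latter. Each had an exact permutation p of 0.0286 (2-sided), the smallest that 4 against 4 arrays can give, and 0.152 after adjustment over the 16 pairs of probe sets of the same gene. No pair can pass the adjusted threshold on its own in this design, and 0 of 16 did (3 had the smallest p). The third pair at that p was in Mxd1, where 1434830_at and 1455104_at differed by -0.57.

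Max, the common partner of MYC, MYCN, MNT, MGA and the MXD proteins, had 1 probe set and no detectable difference. The L-GMP arrays stood at 7.55, 7.42, 7.25 and 7.12 and the GMP arrays at 8.09, 7.27, 7.05 and 7.25. GMP A lay above all other arrays, and the remaining values overlap. The difference was -0.08 (SE 0.21, adjusted p = 0.862, 95% interval -0.54 to 0.39), and its sign turned after median centring (0.06), with array weights (0.06) and without GMP A (0.15). Mlx, the MAX-like partner, had differences of -0.12 (adjusted p = 0.669) and -0.26 (adjusted p = 0.388) in its 2 probe sets, with overlapping groups in both. The sign of the first turned after median centring (0.02).

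Mxi1, an MXD-family repressor that competes with MYC for MAX, rose in both of its probe sets. In 1425732_a_at the L-GMP arrays stood at 9.73, 9.3, 9.91 and 9.77 and the GMP arrays at 8.77, 8.2, 8.36 and 8.12. In 1450376_at the L-GMP arrays stood at 9.92, 9.61, 9.65 and 10.26 and the GMP arrays at 8.96, 8.98, 8.76 and 9.13. In both, every L-GMP array was above every GMP array. The first rose by 1.32 (SE 0.17, 2.49-fold, adjusted p = 0.000862). For the second the rise was 0.91 (SE 0.15, 1.87-fold, adjusted p = 0.00425). The change of the pair was unequal by -0.41, with an exact permutation p of 0.200 (0.320 adjusted over the 16 pairs), so the difference in size did not pass the test. Each stayed past the threshold without any single array. The first passed under all 18 alternatives, from 1.24 to 1.46, and the second under 19 of 20, failing only limma's test against a fold of 1.5 (adjusted p = 0.858).

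Mxd3, an MXD repressor known from cycling cells, rose in 1 of its 3 probe sets, and that call was not firm. In 1422970_at the L-GMP arrays stood at 6.9, 7.2, 6.73 and 6.66 and the GMP arrays at 6.56, 6.2, 6.32 and 6.41. The groups were separate by the distance from 6.56 to 6.66. This probe set rose by 0.50 (SE 0.14, 1.42-fold, adjusted p = 0.0446). The call was kept under 8 of 18 alternatives. Among the 8 fits that each left out 1 array it was kept only without GMP A or L-GMP D, and the adjusted p ranged from 0.0357 to 0.128. The other Mxd3 probe sets had differences of 0.35 (1438847_at, adjusted p = 0.168) and 0.08 (1448878_at, adjusted p = 0.804), with overlapping groups. The first of these passed without L-GMP D (0.48, adjusted p = 0.0461).

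Mxd1, the MXD repressor of maturing granulocytes, had 3 probe sets of mixed sign and none past the threshold. In 1434830_at the difference was -0.27 (adjusted p = 0.273), in 1455104_at 0.30 (adjusted p = 0.135) and in 1422002_at 0.27 (adjusted p = 0.318). All 3 had overlapping groups. After median centring the second passed (0.44, adjusted p = 0.0398).

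Mxd4 had 4 probe sets, and the groups were separate in 1 of them. In 1434379_at the L-GMP arrays stood at 5.77, 5.94, 5.75 and 5.87 and the GMP arrays at 6.22, 6.22, 6.18 and 6.07. The difference of -0.33 (SE 0.10, adjusted p = 0.0532) just missed the threshold. It passed under 4 of 18 alternatives: array weights (adjusted p = 0.0313), an added offset of 16 (0.0189) and either filter on dim probe sets (0.0490 and 0.0378). In the brightest, 1434378_a_at, GMP A stood at 10.15 while the other GMP arrays stood at 9.26 to 9.28. The L-GMP arrays lay between these, at 9.4 to 9.73. Its difference was 0.07 (adjusted p = 0.867), and the 2 remaining probe sets had differences of 0.18 and -0.05.

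Mnt, a repressor found in resting and dividing cells alike, had positive differences in both probe sets without passing. In 1418192_at the L-GMP arrays stood at 8.69, 8.64, 8.77 and 8.86 and the GMP arrays at 8.58, 8.51, 8.27 and 8.39. The groups were separate, and the difference was 0.30 (SE 0.11, adjusted p = 0.110), or 0.44 (adjusted p = 0.0335) after median centring. In 1418193_at it was 0.28 (adjusted p = 0.331), and without GMP A it was 0.45 (adjusted p = 0.0425).

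Mga, the scaffold that brings MAX into a Polycomb complex, had 5 probe sets with differences of -0.09, 0.14, 0.16, -0.45 and 0.06. None passed. The largest, in 1442356_at, came from L-GMP arrays at 5.86, 5.77, 5.59 and 6.22 and GMP arrays at 5.82, 6.46, 6.52 and 6.43. GMP A lay among the L-GMP arrays there. The adjusted p was 0.151, and it was 0.0292 without GMP A (difference -0.61) and 0.0434 with array weights (-0.53).

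**Figure D3:**
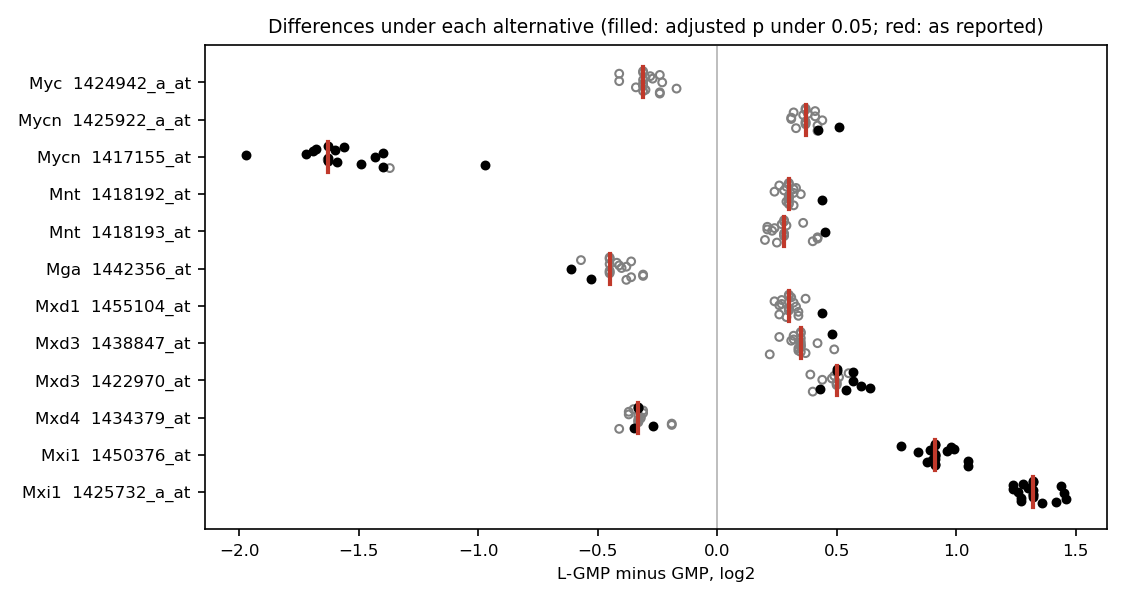
L-GMP minus GMP difference on the log2 scale (horizontal axis) under each alternative setting, for Myc and the member probe sets that passed the threshold under at least 1 setting (rows); the red line is the reported value and filled points have an adjusted p under 0.05. Both Mxi1 probe sets stay between 0.77 and 1.46 and Myc between -0.41 and -0.17. Mycn 1425923_at lies outside the axis and is left out.

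The partners and targets of the network were then read from 10 lists, each gene by its brightest probe set by mean over the 8 arrays. Over all 18193 genes, 4.33% rose and 6.87% fell by this reading, and the median difference was 0.01. No such share is given at an unadjusted limma p under 0.05. Counts at that threshold, here and in the marker lists, therefore have no background beside them.

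Of 10 other helix-loop-helix zipper factors and relatives of the network, 1 rose and 2 fell, with a median difference of 0.05. Usf2, a ubiquitous E-box binder, rose by 0.74 (SE 0.13, adjusted p = 0.00618). The array holds 2 probe sets for Usf2, and the other one did not pass, with a difference of -0.0. Mitf, a factor of mast cells and pigment cells, fell by 1.11 (SE 0.21, adjusted p = 0.00762), and Bhlhe40, an E-box repressor, by 0.58 (SE 0.12, adjusted p = 0.0130). The rises numbered 2 without GMP A or without L-GMP B.

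Of 13 members of the SIN3 and histone deacetylase corepressor that MXD proteins and MNT recruit, 3 rose and 0 fell, with a median of 0.04. Sin3b, the scaffold, rose by 0.51 (SE 0.12, adjusted p = 0.0211; 3 of its 5 probe sets rose, and they ranged from -0.30 to 0.51), Sap30 by 0.49 (SE 0.11, adjusted p = 0.0217) and Ing2, a reader of methylated histone H3, by 0.41 (SE 0.11, adjusted p = 0.0330). The number that rose was 1 without GMP B, GMP C, GMP D or L-GMP D and 0 without L-GMP C. At an unadjusted limma p under 0.05, 3 were higher and 0 lower.

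Of 19 coactivators and partners of MYC, 0 rose and 1 fell, with a median of 0.03, and 1 was higher and 1 lower at an unadjusted limma p under 0.05. Actl6a, an actin-related subunit of chromatin remodelling complexes, fell by 0.47 (SE 0.12, adjusted p = 0.0319). That is 1 of 3 probe sets, which ranged from -0.47 to 0.47, and the other two did not pass. It lost the call without GMP B, GMP D, L-GMP A, L-GMP B or L-GMP C and after median centring. Without GMP A, 1 member rose. Of 12 members of the MGA Polycomb complex 0 rose and 0 fell, with a median of -0.04 that was 0.10 after median centring. At an unadjusted limma p under 0.05, 1 was lower. Yaf2, a RING1-binding subunit, had the largest difference of these (-0.46, adjusted p = 0.0572) in its brightest probe set, while its other probe set fell (-0.53). By the brightest probe sets, 1 gene of the list fell without GMP C.

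Of 22 genes that set the stability of the MYC and MYCN proteins, 1 rose and 3 fell, with a median of -0.04 that was 0.10 after median centring. Pim3, a kinase, rose by 0.58 (SE 0.11, adjusted p = 0.00701). Trim32, a ubiquitin ligase, fell by 0.62 (SE 0.16, adjusted p = 0.0329), and Skp2, the F-box protein that targets MYC, by 0.57 (SE 0.14, adjusted p = 0.0271). Of the 6 Skp2 probe sets 5 fell, and the differences ranged from -1.05 to -0.26. By the brightest probe sets, the falls of the list numbered 0 after median centring. They also numbered 0 without GMP B, GMP C, GMP D, L-GMP C or L-GMP D, and 1 without L-GMP A. The call of Pim3 was kept without any single array, but its 3 probe sets ranged from 0.04 to 0.58 and only 1 passed.

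**Figure D4:**
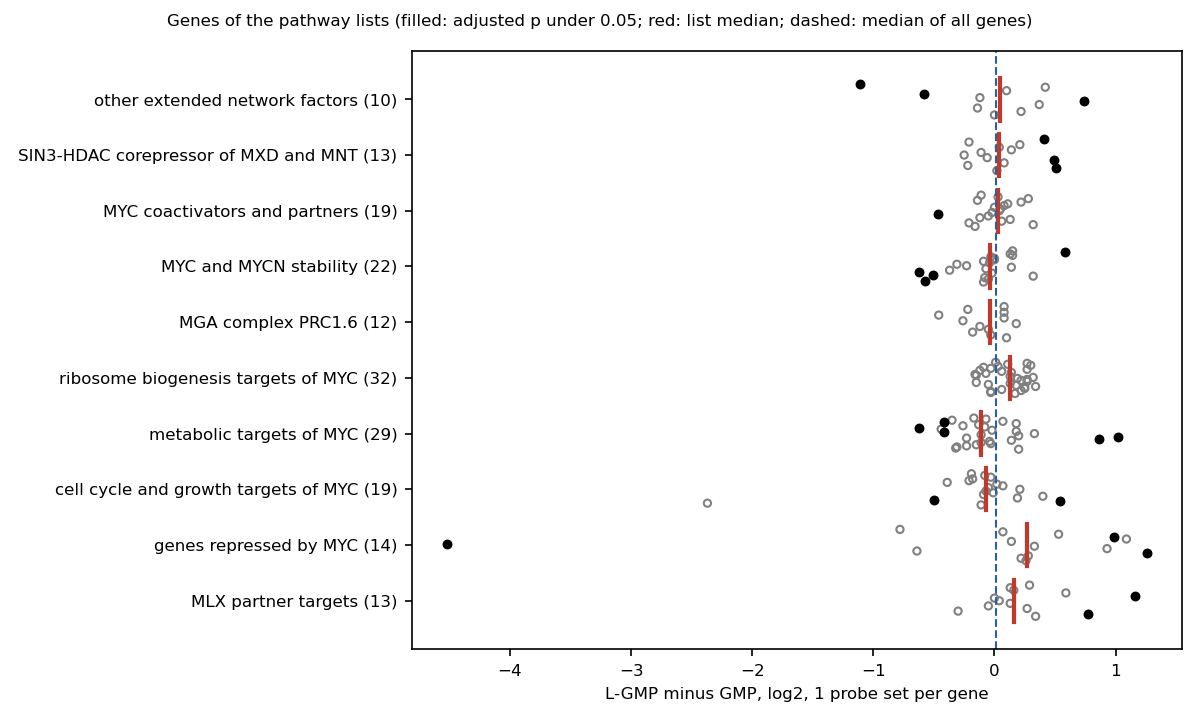
L-GMP minus GMP difference on the log2 scale (horizontal axis) of each measured gene of the 10 lists (rows, with the number of genes in brackets), 1 probe set per gene; filled points have an adjusted p under 0.05, the red lines are list medians and the dashed line is the median of all genes, 0.01. The lowest point is Ndrg2, at -4.52.

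Genes that MYC is known to activate were read from 3 lists, against the 11.2% of all genes that passed in either direction. Of 32 ribosome biogenesis targets 0 rose and 0 fell, with a median of 0.13, while 8 were higher and 0 lower at an unadjusted limma p under 0.05. The 11.2% rests on the adjusted p and is no background for those 8. Nolc1, a nucleolar chaperone, had the largest difference (0.34, adjusted p = 0.101) in its brightest probe set. Its 3 probe sets ranged from -0.30 to 0.48, and 1 of them rose. After median centring 8 rose and the median was 0.27, so the count depends on the scaling. Among all 45037 probe sets the same centring took the rises from 1754 to 4301 and moved the median difference to 0.14.

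Of 29 metabolic targets 2 rose and 3 fell, with a median of -0.11 that was 0.03 after median centring. Slc1a5, a glutamine transporter, rose by 1.02 (SE 0.14, adjusted p = 0.00113), and Slc2a1, a glucose transporter, by 0.86 (SE 0.15, adjusted p = 0.00564). Of the 2 Slc1a5 probe sets 1 passed, with differences of 0.41 to 1.02, while all 3 of Slc2a1 rose. Impdh1, of guanine nucleotide synthesis, fell by 0.62 (SE 0.14, adjusted p = 0.0157). Both rises were kept without any single array. The falls numbered 1 after median centring and without GMP C, GMP D, L-GMP C or L-GMP D, and 0 without GMP B.

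Of 19 cell cycle and growth targets 1 rose and 1 fell, with a median of -0.07 that was 0.07 after median centring. Ccne1, a cyclin of the start of S phase, rose by 0.54 (SE 0.15, adjusted p = 0.0419), and Cdc25a, a cell cycle phosphatase, fell by 0.50 (SE 0.12, adjusted p = 0.0275). Neither call was firm. The rise of Ccne1 was lost in every fit with 1 array left out except that without L-GMP D, where 2 members rose. The fall of Cdc25a was lost without GMP B, GMP D, L-GMP A, L-GMP B or L-GMP D and after median centring. Of the 3 Cdc25a probe sets 1 passed, with differences of -0.5 to -0.13. Of 21 proliferation markers 0 rose and 0 fell, with 1 higher and 3 lower at an unadjusted limma p under 0.05.

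Of 14 genes that MYC is known to repress 2 rose and 1 fell, with a median of 0.27. Cdkn2b, an inhibitor of cyclin-dependent kinases, rose by 1.26 (SE 0.24, adjusted p = 0.00838), and Btg1, an antiproliferative factor, by 0.99 (SE 0.18, adjusted p = 0.00722). The GMP mean of Cdkn2b, 3.59, is under every array's lower quartile, and an offset of 16 gave 0.69, so the size of its rise is not firm either. Ndrg2 belongs to a family whose name stands for N-myc downstream regulated gene. It stood at 4.19, 3.74, 4.06 and 3.99 on the L-GMP arrays and at 8.22, 8.43, 8.34 and 9.06 on the GMP arrays. Its groups are far apart, in the opposite direction to Mycn 1425923_at and the same direction as Mycn 1417155_at. Ndrg2 fell by 4.52 (SE 0.18, adjusted p = 1.6e-07) in its single probe set. Its L-GMP mean of 4.0 is close to the arrays' lower quartile (3.65 to 3.75) and an offset of 16 gave -3.58, so the fall has no firm size. Without L-GMP B the rises of the list numbered 5.

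Of 13 targets of MLX and its MONDO partners 2 rose and 0 fell, with a median of 0.16 (3 higher and 0 lower at an unadjusted limma p under 0.05). Khk, the fructose kinase, rose by 1.16 (SE 0.16, adjusted p = 0.00136), and Arrdc4, an arrestin-like gene induced by glucose, by 0.77 (SE 0.13, adjusted p = 0.00408). Both were kept without any single array, but the other Arrdc4 probe set had a difference of -0.40.

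Genes near the members were compared, the nearest pair with a probe set on each side of every member in the RefSeq gene table, with 0 to 17 other genes between. Of 40 such neighbours, each by its brightest probe set, 3 rose and 4 fell, while 4.33% of all genes rose and 6.87% fell. Pvt1, a long noncoding RNA gene, is the next gene after Myc in that table. Its brightest probe set stood at 7.01, 7.14, 7.23 and 7.85 on the L-GMP arrays and at 5.75, 6.27, 5.94 and 6.28 on the GMP arrays. It rose by 1.25 (SE 0.19, 2.38-fold, adjusted p = 0.00247), while Myc beside it had -0.31. Of its 5 probe sets 3 rose, all 5 differences were positive (0.48 to 1.25), and the call was kept without any single array. The difference between the changes of Pvt1 and Myc was not tested.

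On the other side of Myc, Lratd2 rose by 0.68 (adjusted p = 0.0389), a call kept in 2 of the 8 fits with 1 array left out. None of the measured neighbours of Mycn, with 8 to 11 genes between, passed, with differences of 0.48 (4921511I17Rik), 0.36 (Cyria), -0.20 (Ddx1) and -0.15 (Nbas). Ddx1 is often amplified together with MYCN in neuroblastoma. Of the remaining neighbours, Rgs14 near Mxd3 (0.84) and Hsd17b1 near Mlx (-0.81) passed the threshold and kept the call without any single array. Lman2 near Mxd3 (-0.45), Fut8 near Max (-0.78) and Gmcl1 near Mxd1 (-0.37) passed it too, but lost the call after median centring. With 1 array left out, Lman2 and Gmcl1 kept it in 2 of 8 fits and Fut8 in 1 of 8. The 3 probe sets of Fut8 ranged from -0.78 to 0.34, and the 6 of Gmcl1, of which 1 passed, from -0.46 to 0.02. In some neighbours a probe set other than the brightest rose. These were Smndc1 near Mxi1 (1 of 3, range 0.21 to 0.74), Mapkbp1 near Mga (1 of 2, 0.19 to 0.33) and Prelid1 near Mxd3 (1 of 5, 0.13 to 0.37).

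The probe sets of other genes most like a member were found by the root mean square difference over the 8 arrays, after the GMP mean of each had been subtracted. Those most like Mycn 1425923_at were a pair for Hpgd, a prostaglandin dehydrogenase, at 0.42 and 0.60, followed at 2.38 by F7, a coagulation factor. Most like Mycn 1417155_at were Vwf (0.30), Cavin2 (0.32) and Sall2 (0.33), of which Vwf is a marker of megakaryocytes and endothelium. Most like Mxi1 1425732_a_at were Coro7 (0.17), Fcer1g (0.17) and Vcl (0.18), of which Fcer1g is a receptor chain of myeloid cells. With only the GMP mean subtracted, this distance largely follows the size of the group difference, and every probe set has a nearest one. A shared cell origin of these genes and the members was not tested.

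Markers of cell types differed between the groups beside these results. Of 12 monocyte and macrophage markers 9 rose and 1 fell, and their mean per array was 8.31 to 8.79 in L-GMPs and 7.07 to 7.39 in GMPs. Of 11 eosinophil, basophil and mast cell markers 0 rose and 8 fell (0 higher and 10 lower at an unadjusted limma p), with means of 4.98 to 5.69 in L-GMPs and 7.92 to 9.02 in GMPs. Of 10 stem cell and multipotent progenitor markers 0 rose and 8 fell, among them Meis1 of the leukaemia label. The counts were also 0 and 8 at an unadjusted limma p under 0.05. The mean of the list per array was 4.73 to 5.09 in L-GMPs and 6.69 to 6.85 in GMPs. Of 11 megakaryocyte and erythroid markers 5 fell. Of 14 GMP markers 5 fell, among them Elane (-1.75), Csf3r (-1.16) and Kit (-0.96), and the mean of the list was 10.3 to 10.5 in L-GMPs and 10.8 to 10.9 in GMPs. Of 8 B cell and 7 T and NK cell markers 0 passed in either direction, with 1 higher in each list at an unadjusted limma p under 0.05. Of 11 mature neutrophil markers 1 rose and 3 fell, and of 9 dendritic cell markers 1 rose. The part of these cell types in the differences of Mycn, Mxi1, Mxd3 and Ndrg2 was not tested.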

How the data were processed

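RMA, named in the submitters' processing notes without a version, produced the deposited values, which are intensities on a linear scale per array. Per the labels' protocols the target was made by a sense-strand whole transcript assay, while the array's probe sets are of a 3' design, so the strand and stretch that the target covers are unknown. Log2 was taken, and 64 control probe sets of 45101 were left out. Groups came from the sample titles. The groups were compared with limma (3.58.1, R 4.3.3), fitted on group alone, 2-sided, adjusted over all 45037 probe sets at 0.05. The fit was tested on simulated data. Pairs of probe sets were compared by exact permutation. The 8 replicate letters (A to D in each group) do not mark a stated pairing. Alternatives were other scalings, filters, collapsing rules, priors, array weights, a fold threshold, a block and each array left out. Named genes were all members, up to 3 called genes per list (otherwise the 1 with the largest difference), the neighbours and the nearest probe sets. The 10 members and the 10 pathway and 10 marker lists were chosen with earlier results of these data known, so their counts are descriptions.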

Additional observations from a re-analysis of the deposited data

Results flagged for a closer look

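In 4 of the 52 groups of 4 arrays (26 probe sets, each in L-GMPs and in GMPs), 1 array stood apart, its gap to the nearest of the others, as a share of the group's range, being above Dixon's 95% critical value for 4 samples. Chance gives about 1 in 20 groups. GMP A was that array in 3 of the 4. It was highest in Mxd4 1434378_a_at (0.975 of the range) and in Mnt 1418193_at (0.868), and lowest in Mga 1442356_at (0.881). L-GMP D was highest in Mga 1434746_at (0.896), at 9.34 against 8.91 to 8.96. None of these 4 probe sets passed the test with all arrays.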

How the results depend on the processing

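Of the member values under the alternatives, 443 kept direction and side of the threshold, 12 gained and 13 lost a call and 16 changed sign; the cause was not tested. The 4921 probe sets past the threshold became 741 by the test against a fold of 1.5, 2193 genes with the brightest probe set, 2569 with the mean of probe sets (fewer features tested) and 2972 to 5334 with 1 array left out. Of the 4921, 35.6% were higher in L-GMPs. After median centring 6523 passed, of which 65.9% were higher, and after quantile normalization 5263 passed, of which 46.8% were higher. The 4 member rises became 7 after median centring, where the rises among all 45037 probe sets went from 1754 to 4301. The member rises became 2 by the fold test or with 1 value per gene, and 3 to 5 with 1 array left out. The 1 member fall became 3 with array weights, 2 with an offset of 16 or without the dimmest 25%, 0 by the fold test, with 1 value per gene or without L-GMP B and GMP D together, and 1 to 2 with 1 array left out (2 without GMP A). Signs turned in uncalled probe sets only: Max (0.06 with median centring, 0.06 with array weights, -0.20 to 0.15 with 1 array left out, the latter without GMP A), Mlx 1418437_a_at (0.02), Mga 1434746_at (0.05) and Mxd4 1422575_at (0.09) with median centring, the last also with quantile normalization (0.04), Mxd1 1434830_at (0.10) and Mxd4 1434378_a_at (-0.03) with the mean of probe sets, the latter also with 1 GMP array left out (-0.01 to 0.29), Mxd3 1448878_at (-0.05 to 0.22) and Mga 1433012_at (-0.07 to 0.19) with 1 array left out. With the replicate letter as a replicate block, 4077 probe sets passed, with 3 member rises and 1 fall; Mxd3 1422970_at lost its call (adjusted p = 0.0867). Same-letter arrays had correlations of deviations from -0.07 to 0.10, and arrays of different letters from -0.13 to 0.09. With so few arrays this cannot decide whether a letter marks a shared origin. Background level and detection calls were not used, and 4 arrays per group limit the precision of the dim probe sets.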

Other observations

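A pair of network targets, chosen after their values were seen, varied widely among the L-GMP arrays (SD 1.89 for Ccnd2 and 1.25 for Klf4, against 0.26 and 0.59 among the GMP arrays). Ccnd2, the D-type cyclin that MYC activates, stood at 6.04, 10.23, 8.93 and 6.99 on L-GMP arrays A to D and at 10.77, 10.31, 10.43 and 10.17 on the GMP arrays. L-GMP B was level with the GMP arrays and L-GMP A lay far below them. The difference of -2.37 (SE 0.73) had an adjusted p of 0.0644 in limma's fit. Klf4, a factor that MYC represses, stood at 8.47, 6.62, 9.46 and 8.98 on the L-GMP arrays and at 6.43, 7.4, 7.55 and 7.78 on the GMP arrays. L-GMP B was again the array nearest the GMP arrays, and the difference of 1.09 (SE 0.53) had an adjusted p of 0.230.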
